A study of Homo sapiens with 16 samples.

Results

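The genes described here encode 7 protein tyrosine kinases that act in sequence beneath myeloid surface receptors. They are the Src-family members FGR, LYN, FYN, SRC and YES1, the kinase SYK and the TEC-family kinase BTK. They were chosen by gene name from the 60603 genes of the deposited count table, where each has 1 entry, and no threshold on a measured value was applied. The family was proposed with earlier results of these same counts in view, and which values led to the choice is not recorded, so the tests below give the size of each change against the spread between libraries and are not independent support for the choice of genes. All 7 members passed the filter on low counts in both lines. In SKNO-1, however, SRC, with 1 to 8 counts in each library without Corin, passed only through the groups with Corin, where it is high, and FGR, with 15 and 4 counts with DMSO, only through treated groups. Their changes there are a description of levels, and counts of called members that include them are not support.

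Src-family kinases phosphorylate tyrosines in the tails of receptors and adaptor chains that carry either an activating motif (ITAM) or an inhibitory motif (ITIM). A phosphorylated ITAM recruits and activates SYK, and SYK with its adaptors recruits BTK and the phospholipases that raise calcium. A phosphorylated ITIM instead recruits phosphatases that end the signal. In monocytes, macrophages and granulocytes this relay serves Fc receptors, integrins and lectin receptors.

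RNA was measured by bulk RNA-seq in SKNO-1 and U-937, cell lines that are both labelled as acute myeloid leukaemia (AML). Each line received the solvent DMSO, all-trans retinoic acid (ATRA), Corin, or ATRA with Corin, each agent at 0.1 µM, and was collected after 24 h. ATRA is a ligand of retinoic acid receptors that drives myeloid differentiation, and Corin is a dual inhibitor of the demethylase LSD1 and the histone deacetylases of the CoREST complex. There were 2 libraries in each of the 8 groups. The SKNO-1 medium alone held GM-CSF, at 10 ng/mL in all 4 of its groups, so line and medium cannot be told apart. The labels do not say that replicate libraries came from separate cultures, so p-values measure only the spread between these libraries, which may be technical.

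Library totals were 32773327 to 37817309 estimated counts in SKNO-1 and 28414461 to 37563217 in U-937. In bulk RNA, a change in the number of cells of a type and a change in RNA per cell cannot be told apart. Levels between groups are in CPM (counts scaled to TMM-adjusted library totals), and levels between genes are in the authors' TPM, which adjusts for length. A gene is called changed at a Benjamini-Hochberg adjusted p under 0.05 in edgeR's quasi-likelihood test over all tested genes. The 2 SKNO-1 DMSO libraries stood apart from each other: the log2 difference within that pair had an SD of 0.356 over 9500 genes, against 0.107 to 0.199 within the other 7 pairs. That difference followed gene GC content (Pearson r = 0.797 across genes, which are not independent replicates). So did those of U-937 with DMSO (r = 0.568), U-937 with both agents (0.403) and, in the other direction, SKNO-1 with ATRA (-0.436). In the remaining pairs r lay between -0.166 and 0.108. Where dropping 1 SKNO-1 DMSO library changed a call or strongly moved a called value in that line, the value without it is given too. The myeloid markers SPI1 and CD33 were at 11.7 CPM or more in every library of both lines, MPO reached 1756 to 3902 CPM in SKNO-1 libraries but no more than 0.469 CPM in U-937, the sum of 7 myeloid markers in U-937 was 596 to 621 CPM with DMSO, 793 to 794 under ATRA, 2343 to 2754 under Corin and 3024 to 3254 with both agents, the same sum in SKNO-1 was 2884 to 3932 with DMSO, 3841 to 4169 under ATRA, 2236 to 2380 under Corin and 2978 to 3051 with both agents (its part in the results was not tested), and MS4A1 and HBB were at 0 throughout.

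With both agents in U-937, FGR, LYN, SYK, SRC and FYN rose and YES1 and BTK fell, so that all 7 members were called where 65.3% of the 17717 tested genes were (33.1% higher, 32.2% lower). ATRA alone changed 6 members in U-937, FGR, LYN and SYK upward and FYN, YES1 and BTK downward, beside 41.8% of all genes (21.7% higher, 20.1% lower). Corin alone changed 3 members there, FGR and FYN upward and YES1 downward, beside 12.9% of genes (8.55% higher, 4.40% lower). The median log2 fold change of the members was 1.07 with both agents, 0.31 with ATRA and 0.28 with Corin in U-937, and the median over all tested genes was 0.03, 0.02 and 0 in the same order. These comparisons share the DMSO libraries.

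In SKNO-1 Corin raised FYN, LYN and SRC and lowered SYK and YES1, 5 of 7 members beside 37.9% of the 17479 tested genes (20.5% higher, 17.3% lower). ATRA raised FGR and lowered FYN, 2 members beside 6.76% of genes (2.96% higher, 3.79% lower). Both agents together changed all 7, with FGR, FYN, LYN and SRC higher and SYK, BTK and YES1 lower, beside 46.7% of genes (24.7% higher, 22.0% lower). The plot of fold changes shows that SYK rose in U-937 and fell in SKNO-1 with both agents, and that BTK fell in both lines.

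**Figure D1:**
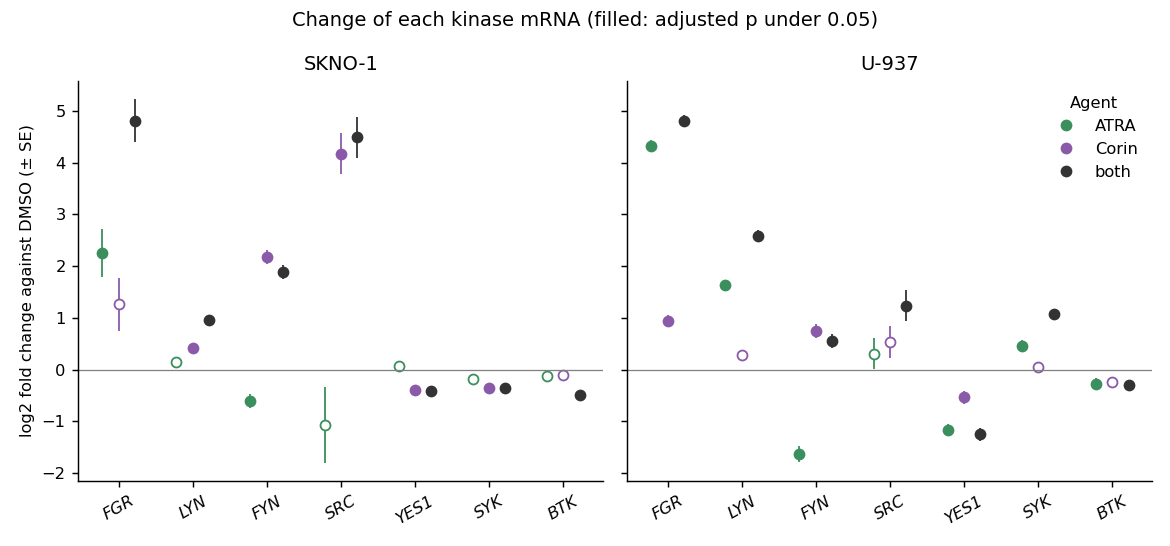
Log2 fold change against DMSO (vertical axis, ± SE) of each kinase gene in SKNO-1 and U-937 with ATRA, Corin or both agents, from fits of 8 libraries per line. Filled points have an adjusted p under 0.05. With both agents FGR stands at 4.81 in each line, while SRC reaches 4.49 in SKNO-1 against 1.23 in U-937.

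RefSeq promoter windows (GRCh38.p14) of 250 bases before an annotated start were matched for FGR, FYN, YES1, SYK and BTK. LYN and SRC had no entry. The windows before the outermost starts of FGR, FYN and SYK are shown because ATRA moved these genes in different directions in U-937: FGR and SYK rose and FYN fell. Capitals mark GAGGAA on either strand, the core that the myeloid ETS factor PU.1 prefers. The windows read 5′ to 3′ on the gene's strand.
FGR, chr1:27635186-27635435, minus strand: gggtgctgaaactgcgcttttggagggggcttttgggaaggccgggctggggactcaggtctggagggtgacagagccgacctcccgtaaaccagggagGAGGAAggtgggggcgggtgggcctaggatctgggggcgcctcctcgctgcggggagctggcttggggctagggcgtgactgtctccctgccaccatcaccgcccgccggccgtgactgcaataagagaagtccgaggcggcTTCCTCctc
FYN, chr6:111873453-111873702, minus strand: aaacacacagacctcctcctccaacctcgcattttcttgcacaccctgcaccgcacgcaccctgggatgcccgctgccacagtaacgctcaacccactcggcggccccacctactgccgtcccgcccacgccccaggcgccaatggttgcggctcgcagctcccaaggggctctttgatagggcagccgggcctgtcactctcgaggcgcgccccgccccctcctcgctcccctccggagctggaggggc
SYK, chr9:90801350-90801599, plus strand: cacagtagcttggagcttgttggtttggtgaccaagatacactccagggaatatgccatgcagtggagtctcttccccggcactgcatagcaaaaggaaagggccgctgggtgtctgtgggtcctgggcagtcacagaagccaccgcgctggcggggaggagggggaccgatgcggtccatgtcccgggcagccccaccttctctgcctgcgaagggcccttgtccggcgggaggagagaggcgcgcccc
The FGR window held GAGGAA 2 times, first bases at -151 and -9 from the start, and the FYN and SYK windows shown held none. Of 34788 RefSeq promoters of the same length, 23.6% held the motif at least once. The retinoid receptor motif AGGTCA (12.02% of promoters) and the C/EBP-type motif TTGCNNAA (9.05%) were in none of the 3 windows. CG pairs numbered 15 for FGR, 20 for FYN and 13 for SYK, beside a median of 11 over all promoters. The outermost BTK window held GAGGAA 2 times, as did a second SYK window nearer the gene, and the YES1 window held none. A match is a description of letters only.

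FGR lies on chromosome 1 (GRCh38, 27612064 to 27635185, minus strand). In U-937 it stood at 10.5 and 10.6 CPM with DMSO, 204 and 217 under ATRA, 20.7 and 19.9 under Corin, and 291 and 298 with both agents. The 4 groups did not overlap, and their order was DMSO, Corin, ATRA, both. ATRA thus raised FGR 20.0-fold (log2 4.32 ± 0.11 SE, adjusted p = 5.37e-19) and both agents 27.98-fold (log2 4.81 ± 0.11, adjusted p = 3.38e-20). Corin alone gave 1.93-fold (log2 0.95 ± 0.11, adjusted p = 7.10e-07). Adding Corin to ATRA raised FGR by a further 0.49 ± 0.09 on the log2 scale (adjusted p = 0.000114).

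In SKNO-1 FGR was near the limit of these libraries with DMSO, at 15 and 4 estimated counts (0.434 and 0.105 CPM). It stood at 1.05 and 1.49 CPM with ATRA, 0.655 and 0.617 with Corin, and 7.17 and 7.86 with both agents, with no overlap between groups. Both agents raised it by 4.81 ± 0.41 on the log2 scale (adjusted p = 7.41e-05), with values of 6.10 without DMSO replicate 1 and 4.09 without DMSO replicate 2. The ATRA change of 2.26 ± 0.46 (adjusted p = 0.0236) was no longer called without ATRA replicate 1 (2.44, adjusted p = 0.0717) or ATRA replicate 2 (1.93, adjusted p = 0.176), and stayed called at 3.51 without DMSO replicate 1 and at 1.51 without the other DMSO library. The Corin change of 1.26 ± 0.51 did not pass (adjusted p = 0.0846). With the GC trend removed it was called (1.27, adjusted p = 0.0218), as it was with no low-count filter (1.25, adjusted p = 0.00532). It was 2.53 and called without DMSO replicate 1 (adjusted p = 0.000592) and 0.53 without DMSO replicate 2 (adjusted p = 0.287).

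**Figure D2:**
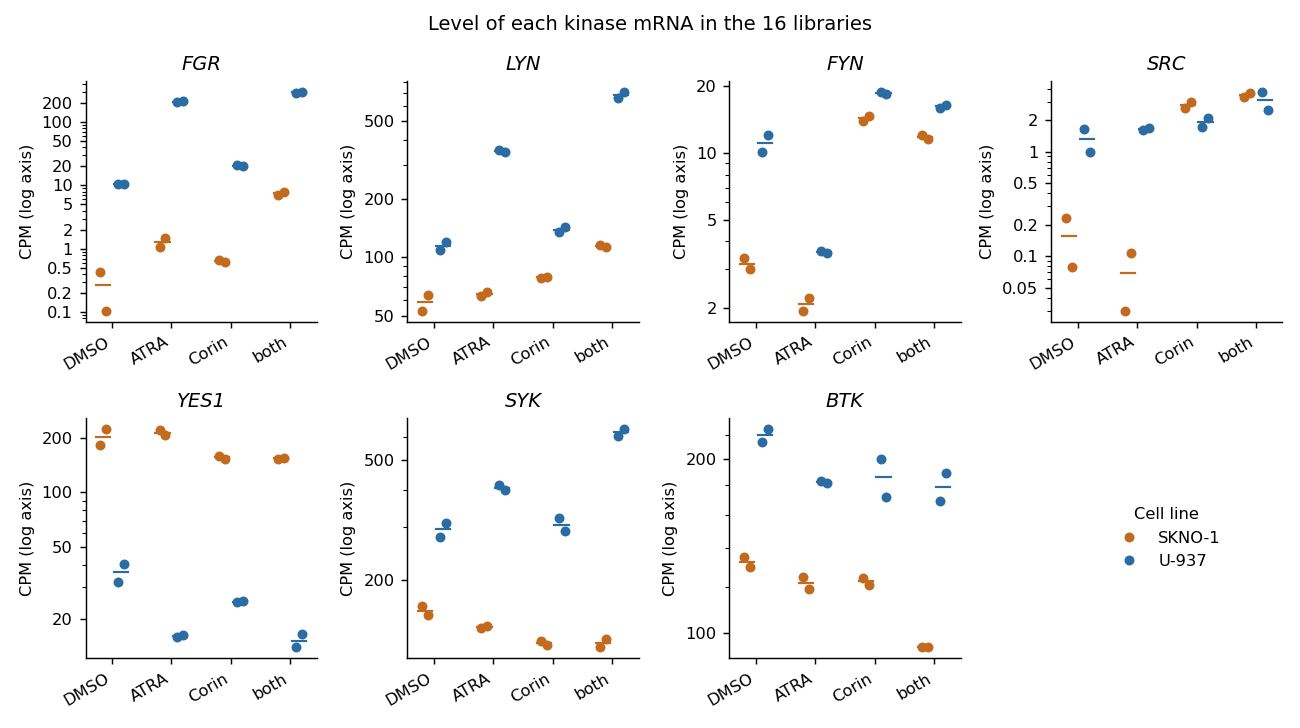
CPM of each kinase gene (log axis, its own range per panel) by treatment, 1 point per library and a bar at the mean of the 2 libraries, SKNO-1 in orange and U-937 in blue. FGR spans 0.105 to 298 CPM over the 16 libraries, and YES1 is the gene that stands higher in SKNO-1 than in U-937 in every group.

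LYN, the Src-family kinase that acts on both ITAM and ITIM receptors, lies on chromosome 8 (55879835 to 56014169, plus strand). In U-937 it stood at 109 and 119 CPM with DMSO, 357 and 348 under ATRA, 134 and 143 under Corin, and 661 and 709.7 with both agents. No groups overlapped. ATRA raised LYN 3.09-fold (log2 1.63 ± 0.10, adjusted p = 8.32e-12) and both agents 6.01-fold (log2 2.59 ± 0.11, adjusted p = 6.18e-16). Corin alone gave a log2 change of 0.28 ± 0.10 that did not pass (adjusted p = 0.0735, and 0.0458 with DESeq2), yet LYN was 0.96 ± 0.10 higher with both agents than with ATRA (adjusted p = 3.22e-08).

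LYN moved less in SKNO-1, from 53.0 and 64.0 CPM with DMSO to 63.3 and 66.1 with ATRA, 78.3 and 78.9 with Corin, and 116 and 113 with both agents. The DMSO and ATRA libraries overlapped, and the other groups did not. Both agents raised LYN 1.95-fold (log2 0.97 ± 0.09, adjusted p = 0.000109). Corin raised it by 0.43 ± 0.09 on the log2 scale (adjusted p = 0.00735; 0.42 and adjusted p = 0.0555 without Corin replicate 2). Dropping DMSO replicate 1 gave 0.27 and dropping DMSO replicate 2 gave 0.55, called in each case. The ATRA change was 0.15 ± 0.09 (adjusted p = 0.474). It was 0.25 and called without DMSO replicate 2 (adjusted p = 0.00223) and -0.03 without DMSO replicate 1. An unnamed long non-coding RNA on the same strand overlaps LYN and held 462 counts over the 16 libraries, against 105580 for LYN.

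FYN, a Src-family kinase best known beneath the T cell receptor and in neurons, lies on chromosome 6 (111660332 to 111873452, minus strand) and moved in opposite directions with the agents. In U-937 it stood at 10.1 and 12.05 CPM with DMSO, 3.61 and 3.55 under ATRA, 18.9 and 18.4 under Corin, and 16.04 and 16.6 with both. No groups overlapped. ATRA alone lowered FYN 3.10-fold (log2 -1.63 ± 0.15, adjusted p = 5.12e-09), Corin raised it 1.68-fold (log2 0.75 ± 0.13, adjusted p = 0.000325), and with both agents it was 1.47-fold above DMSO (log2 0.56 ± 0.13, adjusted p = 0.000910). The level with both agents and that with Corin alone differed by -0.19 ± 0.13, which did not pass (adjusted p = 0.205).

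The same order of groups held for FYN in SKNO-1, with 3.35 and 3.001 CPM with DMSO, 1.95 and 2.22 under ATRA, 14.0 and 14.7 under Corin, and 12.03 and 11.5 with both, and no overlap. Corin raised FYN 4.51-fold (log2 2.17 ± 0.13, adjusted p = 2.18e-05) and both agents 3.71-fold (log2 1.89 ± 0.13, adjusted p = 2.76e-05). The ATRA decrease of -0.61 ± 0.14 was close to the threshold (adjusted p = 0.0453). It was not called without ATRA replicate 1 (-0.56, adjusted p = 0.242) or ATRA replicate 2 (-0.75, adjusted p = 0.117), nor with DESeq2 (-0.64, adjusted p = 0.0531). The T cell markers CD3D, CD3E, CD2 and CD5 summed to at most 3.26 CPM in any library, and the highest sums (2.31 and 3.26 CPM) were in U-937 with both agents, where CD3D and CD3E were at 0. In SKNO-1 the sum was 0 with DMSO and 0.427 to 1.03 CPM with Corin, where CD3E and CD5 were at 0. Their part in the FYN values was not tested.

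SRC, the founding member of the family and widely expressed, lies on chromosome 20 (37344685 to 37406050, plus strand) and was the lowest or next to lowest member by TPM in every group. In SKNO-1 it had 8 and 3 estimated counts with DMSO and 1 and 4 with ATRA, against 92 and 102 with Corin and 107 and 122 with both agents. In CPM these are 0.231 and 0.0790, 0.0300 and 0.108, 2.62 and 2.997, and 3.33 and 3.66. The libraries with Corin stood far above those without it. Corin raised SRC 18.1-fold (log2 4.17 ± 0.40, adjusted p = 0.000182) and both agents 22.5-fold (log2 4.49 ± 0.40, adjusted p = 8.62e-05). With so few counts in DMSO the size is uncertain: the log2 change with both agents became 5.39 when DMSO replicate 1 was dropped and 3.89 when DMSO replicate 2 was, and with Corin it was 5.07 and 3.56.

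In U-937 SRC stood at 1.66 and 0.984 CPM with DMSO, 1.63 and 1.67 under ATRA, 1.73 and 2.12 under Corin, and 3.73 and 2.51 with both agents. The DMSO and ATRA ranges overlapped, and both libraries with both agents lay above all others. Both agents raised SRC 2.36-fold over DMSO (log2 1.23 ± 0.30, adjusted p = 0.000816), while ATRA alone (0.31 ± 0.31, adjusted p = 0.446) and Corin alone (0.53 ± 0.30, adjusted p = 0.288) did not pass. The increase over ATRA of 0.92 ± 0.29 (adjusted p = 0.00997) was 0.62 and not called without replicate 1 of both agents (adjusted p = 0.161), and was not called without ATRA replicate 1 (0.90, adjusted p = 0.0534). The increase over Corin of 0.70 ± 0.28 (adjusted p = 0.0353) was not called without replicate 1 of both agents (0.39, adjusted p = 0.358) or Corin replicate 1 (0.56, adjusted p = 0.189), nor with DESeq2 (0.71, adjusted p = 0.109), library totals alone (0.58, adjusted p = 0.129) or no low-count filter (0.66, adjusted p = 0.0595).

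YES1, a widely expressed close relative of SRC on chromosome 18 (721588 to 812546, minus strand), was the member that stood higher in SKNO-1. It measured 182 and 225 CPM there with DMSO, 219.9 and 208 under ATRA, 159 and 153 under Corin, and 153 and 155 with both agents. The 4 libraries with Corin lay below the 4 without. YES1 fell by 0.38 ± 0.09 with Corin (adjusted p = 0.0142) and by 0.40 ± 0.09 with both agents (adjusted p = 0.00915) on the log2 scale. These calls were lost without either Corin library (-0.41 and adjusted p = 0.0667 without replicate 1, -0.36 and adjusted p = 0.0976 without replicate 2), for Corin also with library totals alone (adjusted p = 0.0553), and without either library with both agents (-0.40 and adjusted p = 0.0582, -0.42 and adjusted p = 0.0523). Without DMSO replicate 1 the changes were -0.55 with Corin and -0.56 with both, and without DMSO replicate 2 they were -0.24 and -0.25. The ATRA change was 0.07 ± 0.09 and not called (adjusted p = 0.785), but called and negative without DMSO replicate 1 (-0.12, adjusted p = 0.0494) and called and positive without DMSO replicate 2 (0.19, adjusted p = 0.00308).

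In U-937 YES1 stood at 32.1 and 40.3 CPM with DMSO, 15.9 and 16.3 under ATRA, 24.8 and 25.1 under Corin, and 14.0 and 16.5 with both agents. The ATRA libraries lay between the 2 libraries with both agents, and the other groups were apart. ATRA lowered YES1 2.24-fold (log2 -1.17 ± 0.12, adjusted p = 5.98e-08) and both agents 2.38-fold (log2 -1.25 ± 0.13, adjusted p = 5.70e-09). Corin lowered it 1.45-fold (log2 -0.54 ± 0.12, adjusted p = 0.00372), a call that was lost without DMSO replicate 2 (-0.37, adjusted p = 0.142). Counts of YES1 are model estimates where reads also fit its pseudogene YES1P1, whose group means were 1.10 to 2.40 CPM.

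SYK, the kinase that docks on phosphorylated ITAMs, lies on chromosome 9 (90801787 to 90898549, plus strand) and changed in opposite directions in the lines. In U-937 it stood at 279 and 311 CPM with DMSO, 414 and 398 under ATRA, 321 and 290.3 under Corin, and 603 and 638 with both agents. The Corin and DMSO libraries overlapped, and ATRA and the combination lay above them in that order. ATRA raised SYK 1.38-fold (log2 0.46 ± 0.10, adjusted p = 0.00100) and both agents 2.10-fold (log2 1.07 ± 0.11, adjusted p = 4.02e-09), while the change with Corin was 0.05 ± 0.10 (adjusted p = 0.811). In SKNO-1 SYK measured 164 and 153 CPM with DMSO, 139 and 141 under ATRA, 125 and 121 under Corin, and 119 and 127 with both agents. The 2 groups with Corin overlapped each other and lay below the rest. SYK fell there by 0.36 ± 0.06 on the log2 scale with Corin (adjusted p = 0.00315) and by 0.36 ± 0.06 with both (adjusted p = 0.00232). The ATRA change of -0.18 ± 0.06 did not pass with all libraries (adjusted p = 0.171), but was called with the GC trend removed (-0.18, adjusted p = 0.0196). Dropping DMSO replicate 1 gave -0.17 and dropping DMSO replicate 2 gave -0.27, called in each case.

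BTK, the TEC-family kinase that activates phospholipase C-gamma and is the target of ibrutinib, lies on chromosome X (101349338 to 101390796, minus strand), and its 6 differences from DMSO were log2 fold changes from -0.49 to -0.11. In U-937 it stood at 214 and 226 CPM with DMSO, 183 and 181 under ATRA, 199.9 and 172 under Corin, and 169 and 189 with both agents. The treated groups overlapped each other and all lay below DMSO. BTK fell by 0.27 ± 0.10 on the log2 scale with ATRA (adjusted p = 0.0353) and by 0.30 ± 0.10 with both agents (adjusted p = 0.0136). The Corin change of -0.24 ± 0.10 did not pass (adjusted p = 0.127). It was called with library totals alone (-0.24, adjusted p = 0.0442) and with the GC trend removed (-0.28, adjusted p = 0.0233). The ATRA call was lost without any 1 of its 4 libraries (adjusted p = 0.0707 to 0.188). The call with both agents was lost without replicate 1 of both agents (-0.22, adjusted p = 0.128) and without DMSO replicate 2 (-0.26, adjusted p = 0.0868). In SKNO-1 BTK measured 135 and 130.2 CPM with DMSO, 125 and 119 under ATRA, 125 and 121 under Corin, and 94.5 and 94.4 with both agents. The single agents overlapped each other, DMSO lay above them and the combination below, and the combination lowered BTK by 0.49 ± 0.06 (adjusted p = 0.000319). The changes with ATRA (-0.12 ± 0.06, adjusted p = 0.320) and Corin (-0.11 ± 0.06, adjusted p = 0.159) did not pass. With the GC trend removed the Corin change was called (-0.16, adjusted p = 0.0117). The ATRA change was called without DMSO replicate 1 (-0.14) or 2 (-0.19), and the Corin change without DMSO replicate 2 (-0.15).

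The combination was also compared with each single agent, and each count is to be read against the share of all genes called. Against ATRA alone, 5 members were higher with both agents in U-937 (FGR, FYN, LYN, SRC and SYK; 47.4% of all genes were called) and all 7 were called in SKNO-1 (FGR, FYN, LYN and SRC higher, BTK, SYK and YES1 lower; 44.8% of genes). The SYK call in SKNO-1 was marginal (-0.18 ± 0.06, adjusted p = 0.0459) and was lost without any 1 of the 4 libraries compared (adjusted p = 0.0820 to 0.282), with DESeq2 (0.0606), with library totals alone (0.0934) and with no low-count filter (0.152), and the YES1 call was lost without ATRA replicate 1 (-0.41, adjusted p = 0.0525). Against Corin alone, FGR, LYN, SRC and SYK were higher and YES1 lower in U-937 (60.5% of genes). In SKNO-1 FGR (3.55 ± 0.36) and LYN (0.54 ± 0.09) were higher and BTK (-0.38 ± 0.06) lower than with Corin alone (10.4% of genes). There FGR alone stayed called when any 1 of the 4 libraries was left out; the adjusted p of LYN was then 0.0803 to 0.108 and that of BTK 0.0520 to 0.0832.

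Whether the agents added up was tested as the log2 effect of both minus the sum of the single effects. In U-937 4 members departed from additivity, beside 23.4% of all genes. FYN stood 1.43 ± 0.20 above the sum (adjusted p = 6.27e-06): the single effects summed to -0.88, and the observed change was 0.56. LYN stood 0.68 ± 0.14 above (adjusted p = 0.00104) and SYK 0.56 ± 0.15 above (adjusted p = 0.00679). The SYK call was lost without ATRA replicate 2 (0.54, adjusted p = 0.0571) or DMSO replicate 2 (0.48, adjusted p = 0.0608). FGR stood 0.46 ± 0.14 below its sum of 5.27 (adjusted p = 0.0189), but this call was lost in 5 of the 8 fits that left out 1 library (adjusted p up to 0.137) and when the GC trend was removed (-0.23, adjusted p = 0.137). YES1 stood 0.45 ± 0.18 above without passing (adjusted p = 0.0676); it was called without replicate 1 of both agents (0.58, adjusted p = 0.0210) and without DMSO replicate 1 (0.60, adjusted p = 0.0241).

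In SKNO-1 no member departed from additivity with edgeR's adjusted test or with DESeq2, beside 0.463% of genes, and 2 members, LYN and BTK, had an unadjusted p under 0.05. The departures were 1.30 ± 0.63 for FGR, 1.38 ± 0.78 for SRC and 0.40 ± 0.13 for LYN (adjusted p = 0.255). Both calls and sizes depended on which DMSO library was kept, in fits that leave 1 library in that group. For FGR the departure came to 0.05 without DMSO replicate 1 and 2.06 without DMSO replicate 2. For SRC it came to 0.52 and 2.02 in the same order, for LYN to 0.58 and 0.30, and for BTK to -0.23 and -0.18. Without DMSO replicate 2 YES1 was -0.20 and SYK 0.28. With all libraries kept and the GC trend removed, LYN was called (0.44, adjusted p = 0.0288, edgeR). The plot of combined against summed effects shows FYN farthest above the diagonal in U-937.

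**Figure D3:**
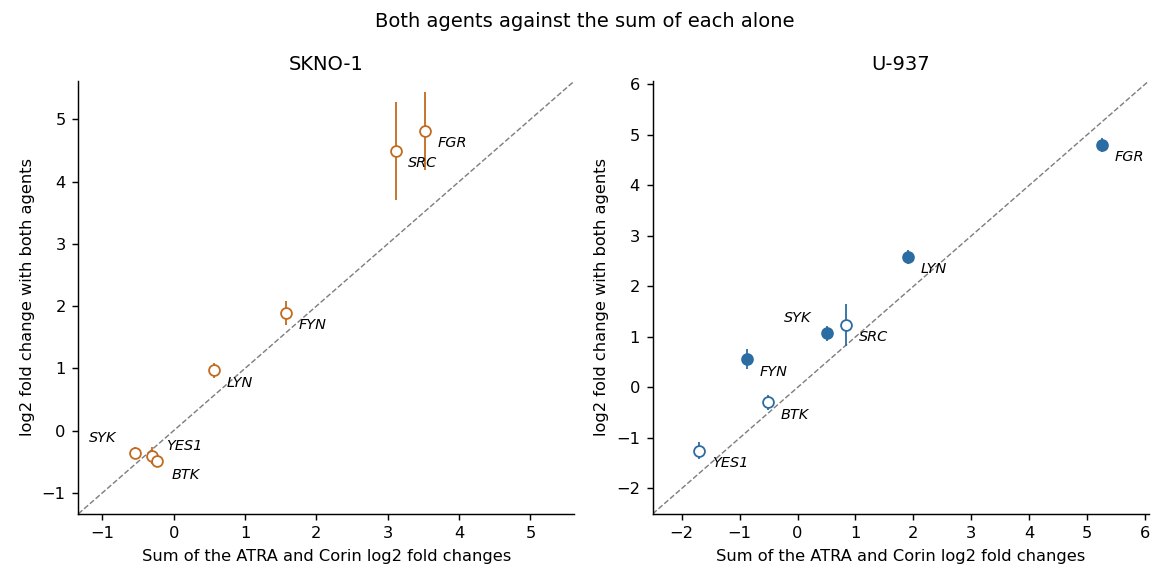
Log2 fold change with both agents (vertical axis; bars are the SE of the departure from additivity) against the sum of the log2 fold changes with ATRA and with Corin (horizontal axis) for the 7 kinase genes. The dashed line marks equality, and filled points have an adjusted p under 0.05 for the departure. FGR in U-937 lies below the line at 4.81 against a sum of 5.27, and FYN above it at 0.56 against -0.88.

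The lines differed before treatment. With DMSO all 7 members differed between U-937 and SKNO-1 in a fit of all 16 libraries, beside 64.8% of 19872 genes. FGR (5.18 ± 0.24 on the log2 scale), SRC (2.97 ± 0.45), FYN (1.68 ± 0.14), LYN (0.83 ± 0.10), SYK (0.77 ± 0.09) and BTK (0.60 ± 0.09) were higher in U-937, and YES1 was lower by 2.62 ± 0.12. The SKNO-1 DMSO libraries held 15 and 4 estimated counts of FGR and 8 and 3 of SRC. The sizes for these genes are therefore uncertain.

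Responses were compared between lines as interaction contrasts. The ATRA effect differed for 5 members (19.4% of all genes), the Corin effect for 3 (12.8%) and the effect of both agents for 5 (40.6%). LYN responded more in U-937 to ATRA (by 1.53 ± 0.14) and to both agents (by 1.67 ± 0.14). The SYK effect was more positive in U-937 with ATRA (0.68 ± 0.12), Corin (0.41 ± 0.12) and both (1.48 ± 0.12). With Corin, SYK fell in SKNO-1 (-0.36) and was not called in U-937 (0.05). SRC responded less in U-937 to Corin (-3.65 ± 0.54) and to both agents (-3.21 ± 0.54), and the effect on FYN was more negative or less positive there with each agent (-0.98 ± 0.21 with ATRA, -1.43 ± 0.19 with Corin, -1.29 ± 0.19 with both). The YES1 effect was more negative in U-937 with ATRA (-1.20 ± 0.17) and with both (-0.80 ± 0.17). With ATRA the YES1 change in SKNO-1 was 0.07 and not called, while with both agents YES1 fell in each line. For FGR the ATRA effect was 2.09 ± 0.44 larger in U-937 (adjusted p = 0.00198), but 0.76 without SKNO-1 DMSO replicate 1 (adjusted p = 0.624) and 2.75 without replicate 2, and the effect of both agents differed by 0.03 ± 0.37. The SYK difference with Corin (adjusted p = 0.0311) was lost in 5 of the 8 fits that left out 1 library, with adjusted p up to 0.113. BTK differed in none of the 3 contrasts (adjusted p = 0.139 to 0.618).

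Per length, the order of the 7 messages changed with treatment in U-937. With DMSO it was BTK (103.6 ± 5.37 TPM, SD, n = 2), SYK (59.7 ± 5.90), LYN (39.1 ± 4.09), YES1 (8.0 ± 1.47), FYN (7.38 ± 1.53), FGR (5.53 ± 0.396) and SRC (0.405 ± 0.0212), with YES1 and FYN overlapping. With ATRA LYN led (100.5 ± 7.93 TPM), followed by FGR (88.9 ± 3.07), BTK (78.3 ± 6.55) and SYK (69.8 ± 7.32), of which BTK and SYK overlapped. With both agents the order was LYN (174 ± 1.48 TPM), FGR (107.6 ± 10.4), SYK (89.5 ± 3.32), BTK (68.6 ± 2.22), FYN (9.08 ± 1.29), YES1 (2.40 ± 0.0919) and SRC (0.890 ± 0.226), with no neighbours overlapping. In SKNO-1 BTK had the highest mean in every group, from 56.8 ± 0.750 TPM with Corin to 34.6 ± 3.995 with both agents; with DMSO its range overlapped that of YES1 (40.2 ± 15.95). LYN stood below BTK, YES1 and SYK with DMSO (17.3 ± 4.68 TPM) and below BTK alone with both agents (29.1 ± 2.18).

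The make-up of the Src-family message, taken as each gene's share of the summed TPM of FGR, LYN, FYN, SRC and YES1, moved in both lines. In U-937 FGR went from 9.25 ± 1.68% with DMSO to 45.5 ± 1.10% with ATRA and 36.6 ± 1.88% with both agents, while YES1 went from 13.2 ± 0.976% to 1.54 ± 0.00733% and 0.816 ± 0.0682%. LYN held 64.7 ± 0.385% with DMSO and 59.2 ± 2.18% with both agents, as the summed TPM went from 60.4 ± 6.68 to 294 ± 13.3. In SKNO-1 YES1 held 66.6 ± 3.31% with DMSO, 66.0 ± 3.22% under ATRA, 48.5 ± 1.27% under Corin and 38.2 ± 0.452% with both agents. LYN went from 29.3 ± 2.45% to 46.4 ± 0.306% and FYN from 3.58 ± 0.451% to 9.27 ± 0.261% with both agents. The summed TPM in SKNO-1 was 59.8 ± 21.0 with DMSO and 62.9 ± 5.13 with both agents. TPM and CPM do not give the same ratios to DMSO: over all tested genes the median of the log2 TPM ratio minus the log2 CPM ratio was -0.48 with both agents and -0.24 with ATRA in U-937, -0.31 with both agents in SKNO-1, and between -0.03 and 0.03 in the other comparisons. The direction of each called change was the same on both scales.

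**Figure D4:**
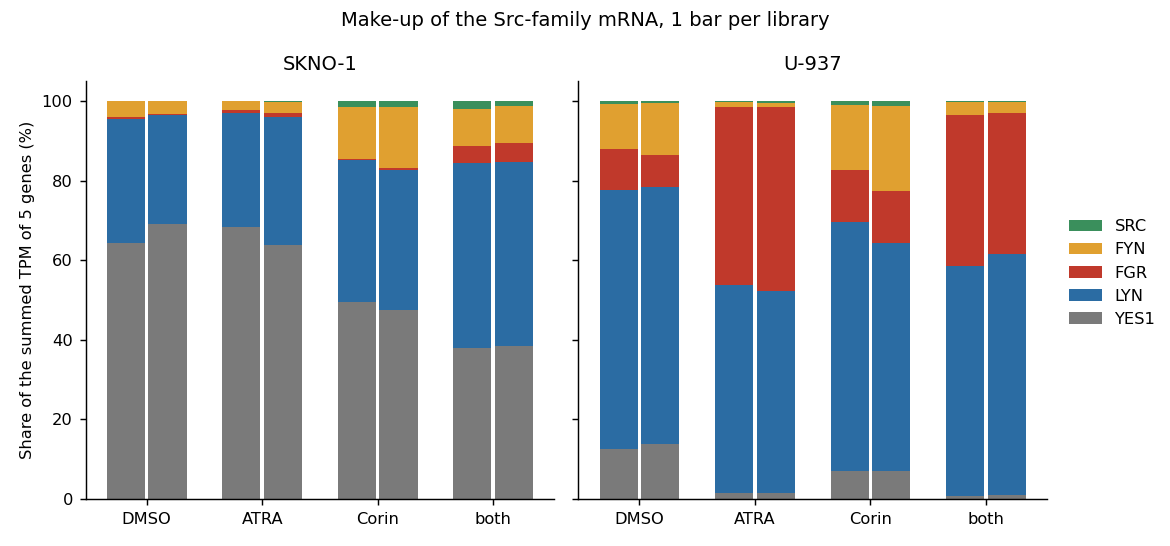
Share of each Src-family gene in the summed TPM of the 5 genes (vertical axis, %), 1 bar per library, by treatment in SKNO-1 and U-937. YES1 and LYN fill most of each SKNO-1 bar, and FGR takes 45.5% with ATRA in U-937 against 9.25% with DMSO.

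Other genes of the relay were taken from lists that, like the members, were drawn up with earlier results known, and each count below is to be read against the share of all tested genes called. With both agents that share was 33.1% higher and 32.2% lower in U-937 and 24.7% higher and 22.0% lower in SKNO-1. Of 9 further kinases of the Src, SYK and TEC families, 3 (BMX, TEC and TXK) were tested in U-937 and all 3 were higher with both agents. BMX, a TEC-family kinase, went from 0.769 ± 0.113 CPM (SD, n = 2) with DMSO to 4.06 ± 0.398 with ATRA, 4.49 ± 0.618 with Corin and 38.3 ± 3.68 with both agents. TEC itself went from 8.97 ± 0.827 to 12.01 ± 0.222 CPM with ATRA. In SKNO-1, 2 of the 9 were tested, and both, TEC (43.9 ± 3.85 to 23.0 ± 1.11 CPM) and TXK (7.69 ± 0.854 to 4.63 ± 0.729 CPM), fell with both agents.

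Receptors and adaptor chains lie upstream of the kinases. In U-937 all 6 tested genes of the 8 ITAM chains and receptors were higher with Corin (8.55% of all genes) and with both agents. TYROBP, the adaptor chain DAP12 that recruits SYK, went from 3.48 ± 0.0327 CPM to 29.9 ± 1.60 with ATRA and 64.8 ± 4.17 with both, and CLEC7A, the lectin receptor Dectin-1, from 0.0809 ± 0.0184 to 11.1 ± 0.950 with both. CLEC7A had 5 counts over the 2 DMSO libraries and was tested only because of groups where it is high, so the filter fixed its direction in part. The counts of 6 that include it are a description of levels and are not support. In SKNO-1 5 of 7 tested ITAM genes were higher with Corin (20.5% of all genes) and 5 with both agents, while FCGR2A (87.5 ± 1.03 to 41.0 ± 0.612 CPM) and FCER1G (4.28 ± 0.125 to 2.02 ± 0.491 CPM) fell with ATRA. Of 15 ITIM receptors, all 15 were higher with both agents in U-937, led by PILRA (1.86 ± 0.105 to 32.7 ± 2.12 CPM) and CD300A (6.34 ± 0.239 to 84.2 ± 6.85 CPM). In SKNO-1 11 of 14 tested were higher and 2 lower with both agents. FCGR2B, the inhibitory Fc receptor, went from 0.316 ± 0.0375 CPM with DMSO to 78.5 ± 3.52 with Corin, and CD22 from 0.255 ± 0.212 to 13.4 ± 0.447. Over the 2 DMSO libraries FCGR2B had 22.73 estimated counts and CD22 had 18, near the filter on low counts. Their rises describe levels, and the count of 11 that includes them is not support.

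Other lists hold genes that restrain or release the kinases. Of 14 tested negative regulators in U-937, 9 were higher with ATRA and none lower (21.7% and 20.1% of all genes), and with both agents 9 were higher and 1, UBASH3B, lower. SLA, the Src-like adaptor that promotes receptor removal, went from 69.8 ± 4.67 CPM with DMSO to 956 ± 12.4 with ATRA and 1487 ± 134 with both agents. PAG1, the membrane adaptor that brings the inhibitory kinase CSK to Src-family kinases, went from 78.9 ± 7.42 to 232 ± 5.54 CPM with both. In SKNO-1, 3 negative regulators were higher and 3 lower of 15 tested with both agents, a share below that of all genes called (46.7%). Of the 4 receptor phosphatases that can remove the inhibitory phosphate of Src-family kinases, 3 were higher and 1 lower with both agents in U-937, and 1 was higher and 3 lower in SKNO-1. PTPRJ rose with both agents in U-937 (51.4 ± 0.537 to 247 ± 2.96 CPM) and in SKNO-1 (9.41 ± 0.604 to 30.1 ± 1.56 CPM). PTPRC, which is CD45, rose in U-937 (216 ± 9.16 to 510.1 ± 45.6 CPM) and fell in SKNO-1 (147 ± 18.4 to 118 ± 1.66 CPM) with both agents. PTPRE fell in SKNO-1 with both agents (57.5 ± 2.41 to 27.9 ± 0.873 CPM), and PTPRA fell in U-937 (169.9 ± 0.567 to 127 ± 7.63 CPM). Of the 29 adaptors and effectors downstream, 20 were higher and 5 lower with ATRA in U-937, and 16 higher and 3 lower with both agents, with SKAP2 (80.2 ± 4.59 to 381 ± 38.6 CPM) among the rises. In SKNO-1 9 were higher and 5 lower of 28 tested with both agents, a share near that of all genes called (46.7%), and PLCG2, the phospholipase that BTK activates, rose with ATRA (104 ± 1.69 to 203 ± 1.62 CPM).

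**Figure D5:**
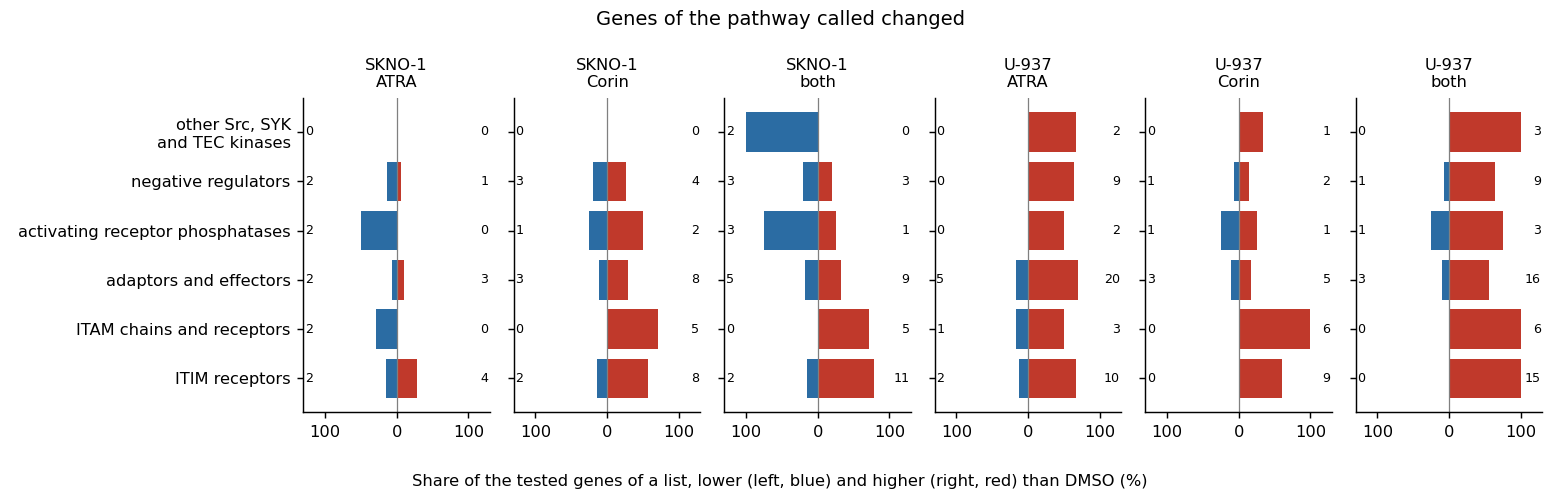
Share of the tested genes of each pathway list called lower (left of 0) and higher (right of 0) than DMSO (horizontal axis, %), for each agent and line; the numbers beside the bars are gene counts. All 15 ITIM receptors and all 6 tested ITAM genes are higher with both agents in U-937. The 6 ITAM genes include CLEC7A, which was tested only because of groups where it is high.

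Across the 16 libraries, with each line centred on its own mean, FGR and LYN followed each other (Pearson r = 0.924 on log2(CPM + 0.5)), FYN and SRC did so less closely (r = 0.794), and YES1 ran against LYN (r = -0.871). These values describe 16 libraries from 8 groups and carry no test. Among 10499 other protein-coding genes, the most alike by the same measure were NR1H3 (r = 0.9896), the oxysterol receptor LXR-alpha, and CSRP1 (r = 0.9896) for FGR, ADGRE3 (r = 0.989) and P2RY13 (r = 0.987) for LYN, and MPZL1 (r = 0.987) and DNAJC18 (r = 0.985) for FYN. They were PPARD (r = 0.989) and SYNPO (r = 0.985) for SRC, CLPX (r = 0.967) and PACRGL (r = 0.965) for YES1, PARP9 (r = 0.974) and ADPGK (r = 0.971) for SYK, and HCCS (r = 0.931) and ATP5PB (r = 0.921) for BTK.

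The authors' deposited tables give 42 values for these genes, 7 members in 6 comparisons with DMSO. All 42 had the same sign as the values computed here, and the largest difference in log2 fold change was 0.100. Of the 41 with an adjusted p, 38 fell on the same side of the threshold. In SKNO-1 the authors' deposited table gave an adjusted p of 0.137 for FGR and 0.889 for FYN with ATRA, and 0.0663 for LYN with Corin, all called here; SRC with ATRA had no adjusted p there.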

How the data were processed

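RNA was measured in 16 libraries (8 groups of 2) of stranded total RNA. The authors deposited estimated counts per gene, the expected count of the RSEM model, with TPM and FPKM beside them, and tables of their own DESeq2 comparisons with mean signal, log2 fold changes and p-values, per the file headers. The submitters' processing notes name Trimmomatic, STAR, RSEM, deepTools and DESeq2 on hg38, without versions. FPKM was not used. Of the positive estimated counts 20.4% were not whole. They were rounded, which changed a library total by at most 42.03 counts. The strand setting of the counting is not given in the sources used here.

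Counts were tested with edgeR 4.0.16 in R 4.3.3 (limma 3.58.1): filterByExpr, TMM scaling, robust quasi-likelihood fits, and Benjamini-Hochberg adjusted p under 0.05 over all genes tested. Each line was fitted on its 8 libraries, and differences between lines on all 16, so CPM of the lines were scaled separately. The fits had 4, 4 and 8 residual degrees of freedom and common biological coefficients of variation of 0.107 (SKNO-1), 0.0945 (U-937) and 0.101 (both). Alternatives were DESeq2 1.42.0, its size factors, library totals alone, no low-count filter, a replicate block, removal of a GC trend, only the 4 libraries compared, and leaving out each library. Tables were summarised with Python 3.11.15, numpy 2.4.6, pandas 2.3.3 and scipy 1.17.1.

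The members and lists were chosen with earlier results of these data known. All 7 members are named. Of each pathway list at most the 2 largest called rises and 2 largest called falls per comparison are named, among genes averaging 1 CPM or more; a gene of 1 list is not reported here and stays out of its counts. The 2 genes most like each member are named by Pearson correlation.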

Additional observations from a re-analysis of the deposited data

Results flagged for a closer look

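In 13 cases the response of a member to the same agent differed between the lines by a test of the difference itself (edgeR's quasi-likelihood test of the interaction, adjusted p under 0.05, 2 libraries per group). The values are log2 effects in U-937 minus those in SKNO-1. The same test called 19.4% of all genes for ATRA, 12.8% for Corin and 40.6% for both agents.

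With ATRA the difference was 2.09 for FGR, 1.53 for LYN and 0.68 for SYK, which were all more positive in U-937. It was -0.98 for FYN and -1.20 for YES1, which were more negative there. With Corin the difference was -1.43 for FYN, -3.65 for SRC and 0.41 for SYK. With both agents it was 1.67 for LYN, 1.48 for SYK, -1.29 for FYN, -3.21 for SRC and -0.80 for YES1. The SYK call with Corin was lost without SKNO-1 Corin replicate 1 (0.46) or 2 (0.41) and without SKNO-1 DMSO replicate 1 (0.36). It was also lost without U-937 Corin replicate 1 (0.36) and without U-937 DMSO replicate 1 (0.35).

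The sizes for FGR and SRC rest on SKNO-1 DMSO libraries with 15 and 4 counts of FGR and 8 and 3 of SRC. The FGR difference with ATRA was 0.76 without SKNO-1 DMSO replicate 1 (adjusted p = 0.624).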

How the results depend on the processing

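Over the alternatives, 1302 member fold changes kept their direction and side of the threshold, 66 lost the call, 42 gained it and 31 changed sign. The causes were not tested, except that the 4-library fits use fewer samples. With 2 libraries per group and few counts of FGR and SRC in SKNO-1, small changes of these genes were not detectable there.

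Genes called for ATRA in SKNO-1 (1181) became 2465 on removal of the GC trend, 1963 when low counts were kept and 239 in fits of 4 libraries. For both agents against Corin in SKNO-1 (1822) they became 2985, 4238 and 7440 in the same order, and for Corin in SKNO-1 (6619) 3776 with 4 libraries. For additivity in SKNO-1 (81) they became 269 with DESeq2, 582 with the GC trend removed and 1445 with no filter, and for the Corin effect between lines (2538) 4427 with the GC trend removed. Members called for ATRA in SKNO-1 (2) became 1 with DESeq2 and 0 with 4 libraries, where SRC was not tested, for Corin in SKNO-1 (5) 3 with 4 libraries, for Corin in U-937 (3) 5 on removal of the GC trend or with library totals only, and for additivity in SKNO-1 (0) 1, LYN, with the GC trend removed or no filter.

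The labels do not say that replicate numbers mark a shared batch. Correlations of deviations between same-numbered libraries ran from -0.496 to 0.226 in SKNO-1 and from -0.461 to 0.421 in U-937. In some groups these deviations also followed GC content, so the correlations cannot exclude a shared batch. With a replicate block, genes called became 1066 for both agents against Corin and 20 for additivity in SKNO-1, and members called for ATRA in SKNO-1 became 0. The block also ended the calls (edgeR) of BTK with ATRA (adjusted p = 0.0514) and of SRC for both agents against Corin (0.0511) in U-937, and of SYK for both agents against ATRA in SKNO-1 (0.0792). With the block and the GC trend removed, genes called became 2231 for ATRA and 446 for additivity in SKNO-1 and 4182 for the Corin effect between lines, and 1 member (LYN) was called for additivity in SKNO-1.

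Changed signs, none called except YES1 in SKNO-1, were these log2 values. With the GC trend removed, and with the block added, BTK for both agents against ATRA in U-937 was 0.000286 and 0.000325, YES1 in the same comparison 0.0293 and 0.0277, SRC for both against Corin in SKNO-1 -0.0588 and -0.0582, YES1 there 0.16 in each (adjusted p = 0.0175 and 0.0315, edgeR), and YES1 for additivity in SKNO-1 0.0970 in each. FGR for both agents between lines was -0.14 with library totals only, and SYK for both against Corin in SKNO-1 0.0075 with 4 libraries.

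Leaving out 1 library moved genes called in SKNO-1 to 562 to 5335 for ATRA, 3626 to 9520 for Corin, 4962 to 5231 for both against ATRA, 397 to 466 for both against Corin and 7 to 5648 for additivity, in U-937 to 1332 to 1887 for Corin, and to 1524 to 4471 for the Corin effect between lines. Members called ranged from 0 to 6 for ATRA, 3 to 6 for Corin, 1 to 1 for both against Corin and 0 to 6 for additivity in SKNO-1, and 2 to 4 for additivity in U-937. In SKNO-1 the log2 value ran from -0.0298 to 0.25 for LYN and -0.12 to 0.19 for YES1 with ATRA, -0.0471 to 0.00474 for YES1 and -0.0502 to 0.0439 for SYK for both against Corin, and -0.20 to 0.11 for YES1 additivity. In U-937 it ran from -0.0103 to 0.74 for SRC with ATRA, -0.0295 to 0.13 for SYK with Corin, -0.21 to 0.0449 for YES1 and -0.11 to 0.0639 for BTK for both against ATRA, -0.17 to 0.0577 for BTK for both against Corin, and -0.0407 to 0.71 for SRC additivity. Between lines it ran from -1.61 to 0.42 for FGR and -0.29 to 0.0430 for YES1 with Corin, and -1.26 to 0.74 for FGR with both agents.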
